A study of Mus musculus with 25 samples.

Results

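Mammary tumours of mice that carry a Met transgene were set against normal mammary gland. The 7 tumours are those labelled MMTV-Met and the 2 normal samples are those labelled Wild-Type. These are 9 of the 25 arrays of the series. The spread behind the p-values was estimated from all 25 arrays, the other 16 tumours included. All animals were female FVB mice. In MMTV-Met mice the receptor tyrosine kinase Met is expressed from the promoter of the mouse mammary tumour virus, which is active mainly in mammary epithelium. The labels of these tumours name no Trp53 allele. Met tumours 1, 3 and 6 were labelled solid nodular carcinoma, Met tumour 2 spindloid, Met tumour 4 adenosquamous, Met tumour 5 scirrhous adenocarcinoma and Met tumour 7 adenocarcinoma. Parity was multiparous for 6 of the tumours and not stated for tumour 6. Each normal sample was a pool, 1 from multiparous and 1 from nulliparous mice, with no treatment or transgene. The labels give neither the age of the mice nor the number of glands in a pool. They also do not say that the tumours came from separate animals, so p-values measure only the spread between the arrays of the series. The other 16 tumours of the series carried the genotype Trp53fl/+ with Cre, with the Met transgene (8, MetTrp53) or without it (8, Trp53), and the driver of Cre is not given in the sources used here.

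MicroRNAs (miRNAs) are short RNAs that pair through their seed, the bases near their 5′ end, with messenger RNAs and lower their translation or stability. Many are made mainly in a single kind of cell, so that their level in a tissue reads both the state of the cells and the mixture of cell types. The mammary gland is an epithelial tree in a fat pad with vessels, connective tissue and adjoining muscle, and a mammary tumour replaces much of that tissue with tumour cells. In such bulk samples fewer cells of a type and less RNA per cell cannot be told apart.

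The levels below are log2 values of array intensity, scaled between arrays, with a floor at 3.54. A miRNA at the floor has no measured order below it. Of 1122 mouse miRNAs on the array 287 were tested, and a miRNA was called where limma's Benjamini-Hochberg adjusted p was under 0.05. The 9 arrays had between 182 and 286 miRNAs well above background and no saturated spot on a mouse probe. The 2 pools correlated at r = 0.98 across miRNAs, and pairs of Met tumours correlated between 0.75 and 0.97. MiRNAs are not independent replicates in such a correlation.

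Of the 42 called miRNAs, 31 had a mature sequence in RefSeq's table (build GRCm38.p6), as had 218 of the 287 tested. The sequences are written 5′ to 3′ with the seed, bases 2 to 8, in capitals. The first set shows the miR-17 cluster and its relatives, which supplied 6 of the 14 miRNAs called higher. MiR-17-5p was tested and not called and is shown for its seed.
miR-20a-5p: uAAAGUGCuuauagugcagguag
miR-20b-5p: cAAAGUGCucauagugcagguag
miR-93-5p: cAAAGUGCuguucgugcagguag
miR-106b-5p: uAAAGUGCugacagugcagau
miR-17-5p: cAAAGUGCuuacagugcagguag
miR-18a-5p: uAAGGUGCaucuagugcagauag
miR-19b-3p: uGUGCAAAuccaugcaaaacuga
The first 5 share the seed AAAGUGC. MiR-20a-5p and miR-20b-5p differ at 2 of 23 positions, as do miR-17-5p and miR-20a-5p, so the array may not separate their signals fully. The genes of miR-18a, miR-20a and miR-19b (first copy) lie on chromosome 14 between 115043867 and 115044380 on the plus strand. Those of miR-20b and miR-19b (second copy) lie on the X chromosome between 52741991 and 52742181, and those of miR-93 and miR-106b on chromosome 5 between 138165574 and 138165807, both on the minus strand. MiR-19b-3p has the same sequence from both of its genes, so the array cannot say which gene gave its signal.

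The second set shows miRNAs with large differences outside that family. They are 2 muscle miRNAs, a miRNA of the miR-378 family, miR-10b-5p, miR-29c-3p, the pair of miR-107-3p and miR-103-3p (of which only miR-107-3p was called), and miR-210-3p and miR-34a-5p, which were called higher.
miR-133b-3p: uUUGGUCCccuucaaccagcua
miR-206-3p: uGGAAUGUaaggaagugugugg
miR-378b: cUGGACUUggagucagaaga
miR-10b-5p: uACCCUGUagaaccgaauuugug
miR-29c-3p: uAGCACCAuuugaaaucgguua
miR-107-3p: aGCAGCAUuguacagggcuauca
miR-103-3p: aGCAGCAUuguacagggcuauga
miR-210-3p: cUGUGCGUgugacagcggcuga
miR-34a-5p: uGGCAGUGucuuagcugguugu
MiR-206 and miR-133b lie 3779 bases apart on chromosome 1, at chr1:20679055-20679076 and chr1:20682834-20682855, both on the plus strand. MiR-107-3p and miR-103-3p differ at 1 of 23 positions and share their seed. The third set shows 4 members of the miR-200 family, in which 1 tumour stood apart from the other 6.
miR-200c-3p: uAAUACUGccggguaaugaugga
miR-200b-3p: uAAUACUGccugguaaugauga
miR-141-3p: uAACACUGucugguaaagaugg
miR-200a-3p: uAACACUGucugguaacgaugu
MiR-200c-3p and miR-200b-3p share a seed, as do miR-141-3p and miR-200a-3p.

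Met tumours differed from normal gland in 42 of the 287 miRNAs tested (14.6%), with 14 higher (4.88%) and 28 lower (9.76%). The largest falls among the called miRNAs were in those of muscle and the miR-378 family, and the lower calls also held miRNAs of vessels and contractile cells. Those called higher were led by the hypoxia-induced miR-210-3p and by the miR-17 cluster and its paralogs. The difference was at least 2-fold for 32 of them, 11 higher and 21 lower. All 7 tumours lay above both pools for the 14 higher miRNAs, and below both for 26 of the 28 lower ones. Among all 287 miRNAs the tumours lay wholly above both pools in 34 (11.8%) and wholly below in 34 (11.8%), so that 68 (23.7%) showed no overlap. The median change over all tested miRNAs was 0.20 on the log2 scale. Set against that median the 14 higher ones stood between 0.60 and 2.40, and the 28 lower ones between -7.91 and -0.46. With the scaling taken over all mouse probes the median was 0.04 and 34 were called, 3 higher and 31 lower, so the split between higher and lower depends on the scaling. Of the 28 lower miRNAs, 11 had entered the test through the pools only and could hardly have come out higher.

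**Figure D1:**
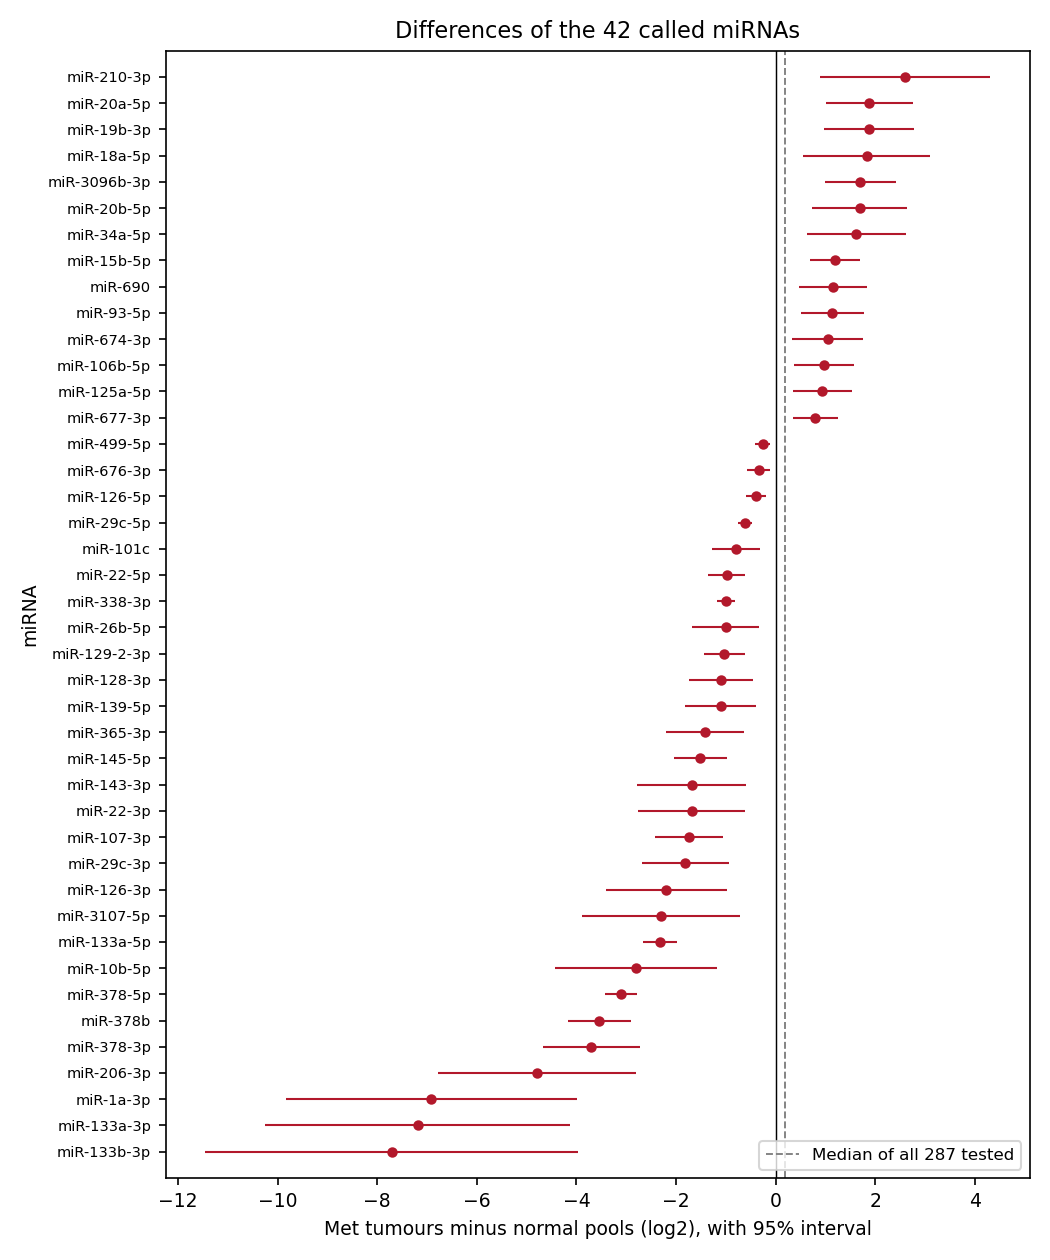
Each row is 1 of the 42 called miRNAs, the point is the Met minus normal difference on the log2 scale and the bar its 95% interval from limma. The dashed line is the median change of all 287 tested miRNAs at 0.20. The differences run from -7.71 for miR-133b-3p to 2.60 for miR-210-3p.

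The largest falls were in the miRNAs of skeletal and heart muscle. All 5 tested members of the muscle list were called lower, with a median change of -6.91 against 0.20 over all miRNAs tested. MiR-133a-3p, miR-1a-3p, miR-206-3p and miR-499-5p had entered the test through the pools only, so that their direction was nearly fixed by the filter and the count is a description. MiR-133b-3p lay between 3.54 and 8.72 in Met tumours, with a median of 3.54, and at 12.37 in the multiparous and 12.78 in the nulliparous pool. It fell by 7.71 (SE 1.81, limma adjusted p = 0.00463). Its tumour value was well above background on 3 of 7 arrays, and the highest tumour was still far below both pools. MiR-133a-3p had a tumour range of 3.54 to 7.69, a median of 3.54 and pool levels of 11.37 and 11.78. Its difference was -7.19 (SE 1.48, limma adjusted p = 0.00138). MiR-1a-3p, which with miR-133a is made in both skeletal and heart muscle, lay between 3.54 and 7.70 in tumours and at 10.90 and 11.75 in the pools. It fell by 6.91 (SE 1.41, limma adjusted p = 0.00138). MiR-206-3p, which is made in skeletal muscle, lay between 3.54 and 6.36 in tumours and at 8.69 and 9.18 in the pools, and fell by 4.80 (SE 0.96, limma adjusted p = 0.00134). In none of these did tumours and pools overlap.

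Only Met tumours 2, 4 and 5 had any of these miRNAs above the floor. Tumour 4 was highest in miR-133b-3p, at 8.72, while tumour 2 was highest in miR-206-3p, at 6.36. The size of the muscle differences rests on the floor, since 4 of 7 tumours lay on it for miR-133b-3p, miR-133a-3p and miR-1a-3p and 5 of 7 for miR-206-3p. Across the alternatives for scaling, background correction, probe choice and floor, miR-133b-3p differed by -9.04 to -5.99 and miR-206-3p by -6.18 to -2.92. The minor strand miR-133a-5p, not on the list, lay at the floor in 6 of 7 tumours, was well above background in 1 and had also entered through the pools only. Its pool levels were 5.71 and 6.04. Its difference of -2.33 (limma adjusted p = 2.16e-10) has its size and small error from the floor, with -4.34 to -1.02 across the same alternatives. MiR-499-5p, made from a heart and slow muscle myosin gene, was well above background on 0 of 7 Met arrays. It was at least 1.11-fold lower in Met tumours, with measured means of 3.54 in tumours and 3.80 in the pools (limma adjusted p = 0.0156). All tumours lay on the floor and hence had no spread among them. With normexp miR-499-5p stood at -0.05 (limma adjusted p = 0.897). Without the multiparous pool the call of miR-133b-3p was lost, at -7.92 (adjusted p = 0.0948), and without the nulliparous pool too, at -7.51 (adjusted p = 0.0734). MiR-133a-3p, miR-1a-3p and miR-206-3p were called without either pool, and within the 2 slides that held a tumour and a pool miR-133b-3p differed by -8.83 and -4.06.

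Among the miRNAs of fat tissue the miR-378 family and miR-365-3p were lower. Of 5 tested members of the adipose list 3 were called lower and 0 higher, with a median change of -1.41, and 2 of the 3 were the strands of the miR-378 hairpin. MiR-378-3p lies in an intron of Ppargc1b, a coactivator of mitochondrial genes, and is abundant in fat and muscle. It lay between 4.13 and 6.20 in Met tumours, with a median of 5.05, and at 9.43 in the multiparous and 8.31 in the nulliparous pool. It fell by 3.71 (SE 0.47, limma adjusted p = 2.99e-06), which is a 13-fold difference, and all 7 tumours were well above background. Its mean was 5.16 ± 0.63 in tumours (SD, n = 7) and 8.87 ± 0.79 in the pools (SD, n = 2). MiR-378-5p, from the other strand of the same hairpin, lay at the floor in 6 of 7 tumours and at 3.81 in tumour 5, against 7.11 and 6.25 in the pools (limma adjusted p = 2.52e-13). It had entered the test through the pools only, and the size of its fall is set by the floor. It ran from -4.29 to -1.25 across the alternatives for scaling, background correction, probe choice and floor. The related miR-378b, which is not on the list, lay between 4.19 and 5.28 in tumours and at 8.69 and 7.75 in the pools, and fell by 3.55 (SE 0.31, limma adjusted p = 5.35e-09). The tumours and pools were well separated in all of these. MiR-378-3p, miR-378-5p and miR-378b stayed called under each of the alternatives that tested them, the removal of either pool included. MiR-378-5p was well above background on 2 of 7 Met arrays. It was therefore not tested in the alternative that asked for all 9 arrays.

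MiR-365-3p, which is made with miR-193b and enriched in brown fat, lay between 6.20 and 8.11 in tumours and at 8.67 and 8.22 in the pools, and fell by 1.41 (SE 0.38, limma adjusted p = 0.0142). Tumour 6 came close to the nulliparous pool. Its partner miR-193b-3p was not called, with tumours between 5.65 and 9.06 and pools at 10.09 and 8.47, a difference of -1.36 (limma adjusted p = 0.449). Here the pools themselves differed by 1.62. Without the multiparous pool the difference of miR-365-3p was -1.19 (adjusted p = 0.292), and without the nulliparous pool -1.64 (adjusted p = 0.0533).

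**Figure D2:**
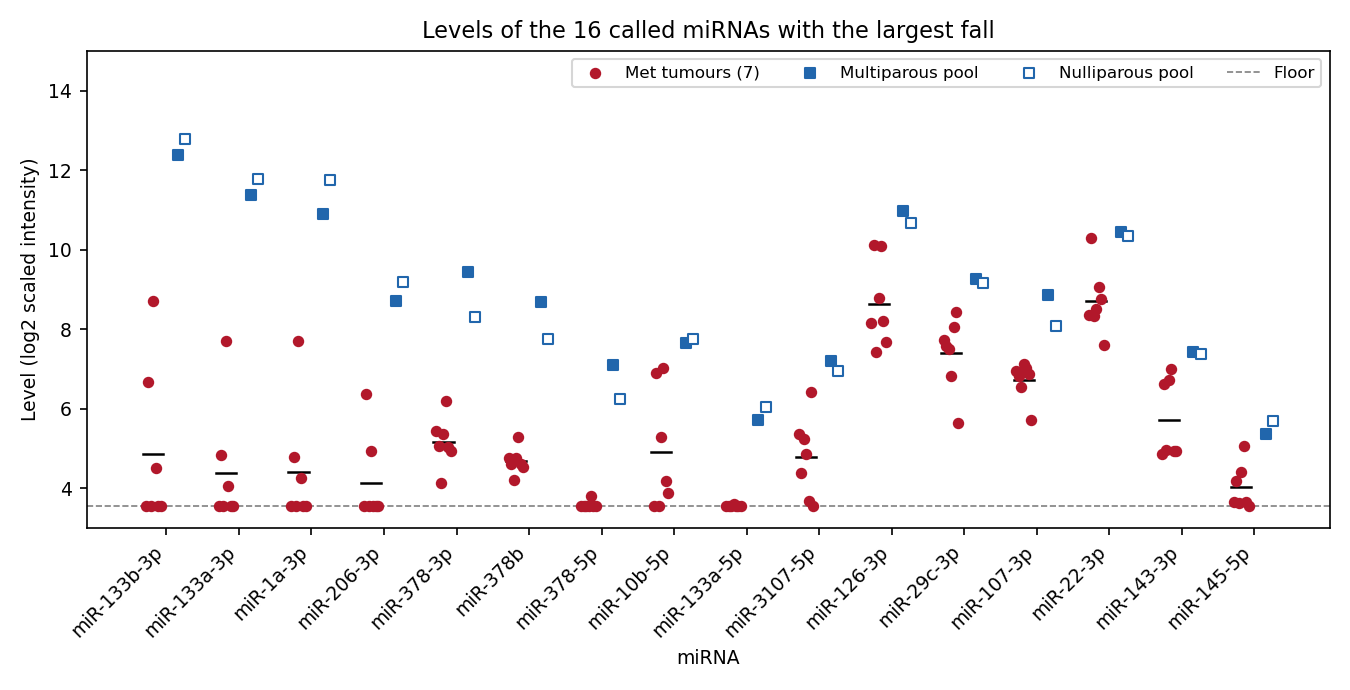
Levels (log2 scaled intensity) of the 16 called miRNAs with the largest fall, with the 7 Met tumours as circles left of the 2 pools as squares, black lines for the tumour mean and a dashed line for the floor at 3.54. All 7 tumours lie below both pools for each of the 16, and 3 tumours lie above the floor for miR-133b-3p.

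Both strands of the endothelial miR-126 were called lower. MiR-126-3p, which lies in an intron of Egfl7 and marks endothelium, ranged from 7.42 to 10.11 in Met tumours, with a median of 8.20, against 10.98 and 10.67 in the pools. It fell by 2.19 (SE 0.59, limma adjusted p = 0.0141). Tumours 2 and 5, at 10.11 and 10.08, came nearest to the pools. MiR-126-5p lay at the floor in 6 of 7 tumours and at 4.04 and 3.92 in the pools, a fall of 0.39 (SE 0.10, limma adjusted p = 0.00872). It had entered the test through the pools only, so that its direction was nearly fixed by the filter. With normexp its sign turned to 0.11, and without the multiparous pool it stood at -0.33. With only Met and normal arrays in the model the calls of miR-126-5p and miR-126-3p were lost (limma adjusted p = 0.145 and 0.15). MiR-126-3p lost its call without the multiparous pool, at -2.04 (adjusted p = 0.203), and without the nulliparous pool, at -2.34 (adjusted p = 0.0874).

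MiR-143-3p and miR-145-5p, which are made together in smooth muscle and other contractile cells, were both called lower. MiR-143-3p ranged from 4.87 to 6.99 in tumours, with a median of 4.97, against 7.43 and 7.38 in the pools, a fall of 1.69 (SE 0.53, limma adjusted p = 0.034). The tumours lay at separate levels. Tumours 2, 4 and 5 were between 6.62 and 6.99, and tumours 1, 3, 6 and 7 between 4.87 and 4.97. MiR-145-5p ranged from 3.54 to 5.06 in tumours, against 5.37 and 5.68 in the pools, and fell by 1.51 (SE 0.26, limma adjusted p = 0.00024). The call of miR-143-3p was lost without either pool in turn (-1.66 and -1.71) and without Met tumour 1, 3, 6 or 7 (limma adjusted p up to 0.0586). It was also lost with slide as a block (-1.6, adjusted p = 0.0704) and with scan date as a block (-1.61, adjusted p = 0.0566). With normexp both calls were lost, miR-143-3p at -0.89 (adjusted p = 0.0736) and miR-145-5p at -0.36 (adjusted p = 0.389). Both were lost too with only Met and normal arrays in the model (adjusted p = 0.222 and 0.0684). Without the multiparous pool miR-145-5p stood at -1.67, and without the nulliparous pool at -1.36.

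Of 10 tested members of the mesenchymal list, 1 was called lower and 0 higher, with a median change of -1.25. The called one was miR-10b-5p, which is transcribed within the Hoxd cluster. It ranged from 3.54 to 7.01 in Met tumours, with a median of 4.18, against 7.66 and 7.76 in the pools, and fell by 2.81 (SE 0.78, limma adjusted p = 0.0167). Tumours 2 and 5 held it at 6.88 and 7.01, close to the pools, and tumours 1 and 3 lay at the floor. Its relative from the Hoxb cluster, miR-10a-5p, shares its seed and ranged from 4.06 to 7.31 in tumours, against 7.14 and 7.13 in the pools, a difference of -1.90 (limma adjusted p = 0.0593). The fibroblast miRNA miR-199b-5p had a difference of -1.96 (limma adjusted p = 0.272), with tumours between 4.16 and 9.02 that overlapped the pools at 7.85 and 8.91. MiR-10b-5p was not called without the multiparous pool, at -2.86 (adjusted p = 0.182), or without the nulliparous pool, at -2.76 (adjusted p = 0.166).

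The lists of these cell types differed among the tumours. Tumours 2, 4 and 5 had muscle list means of 5.23, 6.52 and 3.98, and the other 4 tumours lay at 3.54, against 9.45 and 9.84 in the pools. The mesenchymal mean was 7.87 in tumour 2 and 7.44 in tumour 5, and ran from 4.95 to 6.59 in the others, against 7.38 and 8.05 in the pools. The endothelial mean was 6.82 in tumour 2 and 6.99 in tumour 5, and ran from 5.48 to 6.16 in the others, against 7.51 and 7.30 in the pools. The adipose mean ranged only from 5.12 to 5.93 across tumours, against 8.11 and 7.17 in the pools. No tumour reached the pools in the muscle or adipose mean. The part of these cell types in the other differences was not tested.

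**Figure D3:**
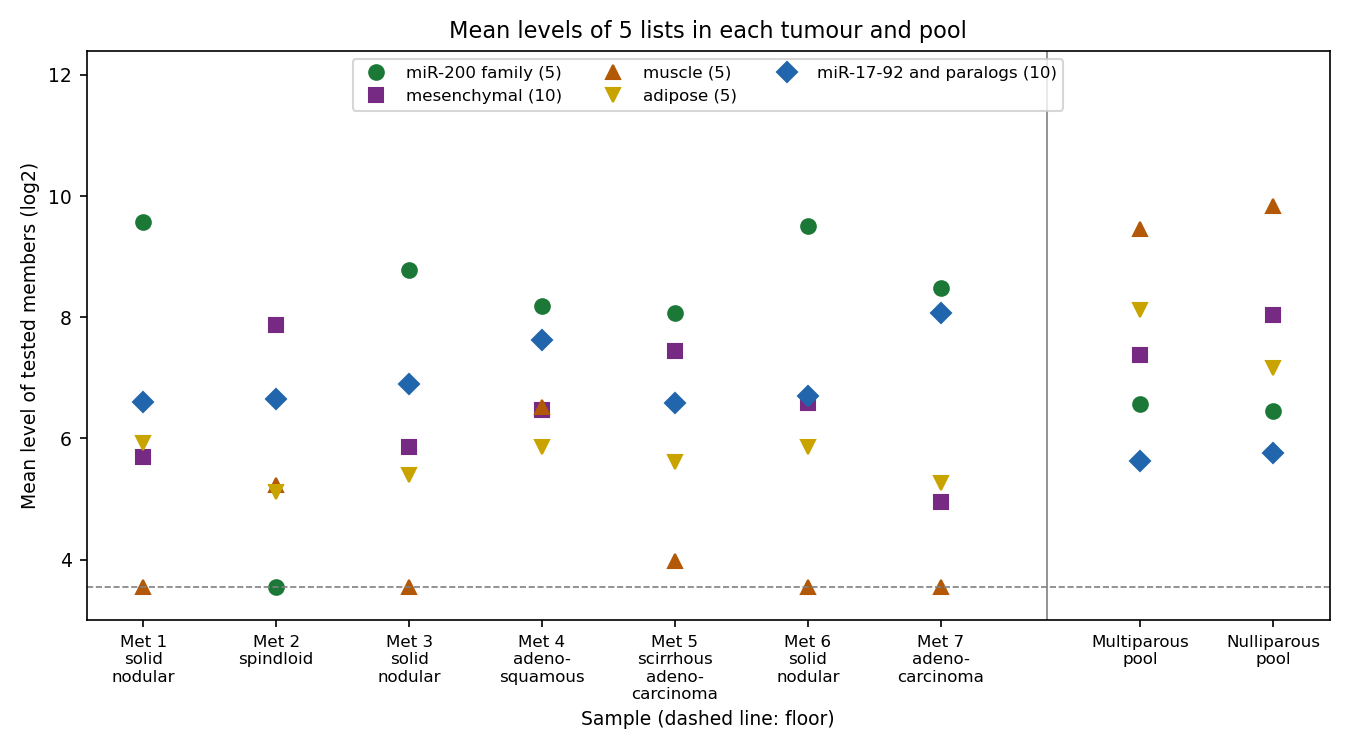
Mean level (log2) of the tested members of 5 lists in each Met tumour, with its labelled pathology, and in the 2 pools, right of the vertical line. The number of members stands in the legend and the dashed line is the floor at 3.54. Muscle members lie at 9.45 and 9.84 in the pools and at or below 6.52 in tumours. The miR-200 mean is 3.54 in the spindloid tumour 2 and between 8.06 and 9.57 in the other tumours.

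Epithelial miRNAs were measured in both pools and in most tumours. The miR-200 family holds cells in the epithelial state by repressing the Zeb transcription factors. Of its 5 members limma called 0 (0 at an unadjusted p under 0.05), with a median change of 1.32, and the spread among the tumours was wide. MiR-200c-3p lay at 11.05, 9.98, 9.30, 9.12, 10.99 and 9.44 in tumours 1, 3, 4, 5, 6 and 7, all above the pools at 7.34 and 7.07. In the spindloid tumour 2 it lay at the floor of 3.54. The difference was 1.86 (SE 1.85, 95% interval -1.97 to 5.68, limma adjusted p = 0.548). MiR-141-3p ranged from 7.05 to 8.80 in the same 6 tumours and lay at 3.54 in tumour 2, against 5.05 and 4.92 in the pools, a difference of 2.46 (SE 1.32, limma adjusted p = 0.279). Without tumour 2 it was 3.12 (adjusted p = 0.0747), and that of miR-200c-3p was 2.78 (adjusted p = 0.295), so no member was called without it either. The remaining members, miR-200a-3p, miR-200b-3p and miR-429-3p, likewise lay above both pools in 6 tumours and at the floor in tumour 2.

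Of 5 other epithelial miRNAs 0 were called, with a median change of 0.76. MiR-96-5p and miR-183-5p, which come from a single transcript with miR-182, stood higher by 1.78 and 1.59 (limma adjusted p = 0.374 for both). MiR-205-5p, a miRNA of basal and squamous epithelium, had its highest level, 9.16, in the adenosquamous tumour 4 and its lowest, 3.70, in the spindloid tumour 2, with the pools at 7.48 and 7.60. Its difference was -0.65 (SE 1.43, limma adjusted p = 0.783), with 3 tumours above both pools and 4 below. In the list of miRNAs of secretory mammary epithelium and milk, 1 of 4 was called. MiR-22-3p ranged from 7.59 to 10.30 in tumours, against 10.43 and 10.34 in the pools, and fell by 1.69 (SE 0.52, limma adjusted p = 0.0294). Tumour 2 came within reach of the pools. Without the multiparous pool its difference was -1.64 (adjusted p = 0.292), without the nulliparous pool -1.73 (adjusted p = 0.189), and without Met tumour 7 -1.50 (adjusted p = 0.0506). MiR-146b-5p and miR-148a-3p had values of 2.08 and 1.12 and were not called (limma adjusted p = 0.23 and 0.541), with 6 tumours above both pools and tumour 2 below.

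MiR-210-3p, which hypoxia induces through HIF in many cell types, had the largest increase. It ranged from 5.76 to 9.20 in Met tumours, with a median of 7.58, against 5.19 in the multiparous and 4.82 in the nulliparous pool. It rose by 2.60 (SE 0.83, limma adjusted p = 0.0358), a 6.07-fold difference. Every tumour lay above both pools. Tumours 2 and 3 were highest, at 8.74 and 9.20, and tumour 5 was nearest to the pools. On the 2 slides with both kinds of sample the difference was 1.93 and 3.25. The call was lost without either pool (2.79 and 2.41, adjusted p = 0.237 and 0.28) and without Met tumour 2, 3 or 4 (2.41, 2.34 and 2.52, adjusted p = 0.0559, 0.0586 and 0.0594). It was also lost under 3 other scalings, over all mouse probes (2.25, adjusted p = 0.18), by quantile (2.3, adjusted p = 0.0901) and in the authors' deposited table (2.26, adjusted p = 0.0793), and kept with a block for slide (adjusted p = 0.04) or scan date (adjusted p = 0.0235).

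The miR-17 cluster and its paralogs are transcribed in response to Myc and E2F factors in dividing cells, and the miR-106b cluster lies in an intron of the replication gene Mcm7. Of the 10 tested members, 6 were called higher and 0 lower, where 4.88% of all tested miRNAs were called higher and 9.76% lower. The median change was 1.41 against 0.20 over all miRNAs. MiR-17-5p, miR-18a-5p and miR-19a-3p were well above background in 0, 1 and 1 of the 2 pools. They had entered the test through tumours only, so that the filter favoured a rise. Of these only miR-18a-5p was called. MiR-20a-5p ranged from 8.15 to 10.07 in tumours, with a median of 8.60, against 6.94 and 6.93 in the pools. It rose by 1.88 (SE 0.42, limma adjusted p = 0.00346), a 3.69-fold difference. MiR-19b-3p ranged from 7.74 to 9.61, with a median of 8.15, against 6.42 and 6.74 in the pools, and rose by 1.87 (SE 0.44, limma adjusted p = 0.00463). MiR-20b-5p ranged from 6.55 to 8.59, against 5.23 and 5.78 in the pools, and rose by 1.69 (SE 0.46, limma adjusted p = 0.0156). The tumours lay above both pools for each of the 3.

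MiR-18a-5p ranged from 4.15 to 7.24 in tumours and lay at the floor in both pools, where 1 of 2 arrays had it well above background. Its difference of 1.83 (SE 0.62, limma adjusted p = 0.049) therefore rests on the floor. MiR-93-5p and miR-106b-5p of the Mcm7 cluster rose by 1.14 (SE 0.30, limma adjusted p = 0.0141) and 0.97 (SE 0.29, limma adjusted p = 0.0261). The members not called were miR-17-5p, miR-19a-3p, miR-25-3p and miR-92a-3p. MiR-19a-3p, with the same seed as miR-19b-3p, stood at 1.75 (limma adjusted p = 0.0593), and miR-17-5p, at the floor in both pools, at 0.37 (limma adjusted p = 0.449). Tumours 4 and 7 carried the highest levels of the family, with list means of 7.63 and 8.06, and the other tumours lay between 6.58 and 6.90, against 5.62 and 5.76 in the pools. Of the 5 tested miRNAs with the seed AAAGUGC, 4 were called higher, and their changes ran from 0.37 to 1.88. With the scaling over all mouse probes 2 members of the list were called, without the multiparous pool 0, without the nulliparous pool 1, and with only Met and normal arrays in the model 0. With slide as a block 5 were called and with scan date as a block 4. MiR-106b-5p was lost in both (adjusted p = 0.0573 and 0.0538), and miR-18a-5p with scan date (1.74, adjusted p = 0.104).

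**Figure D4:**
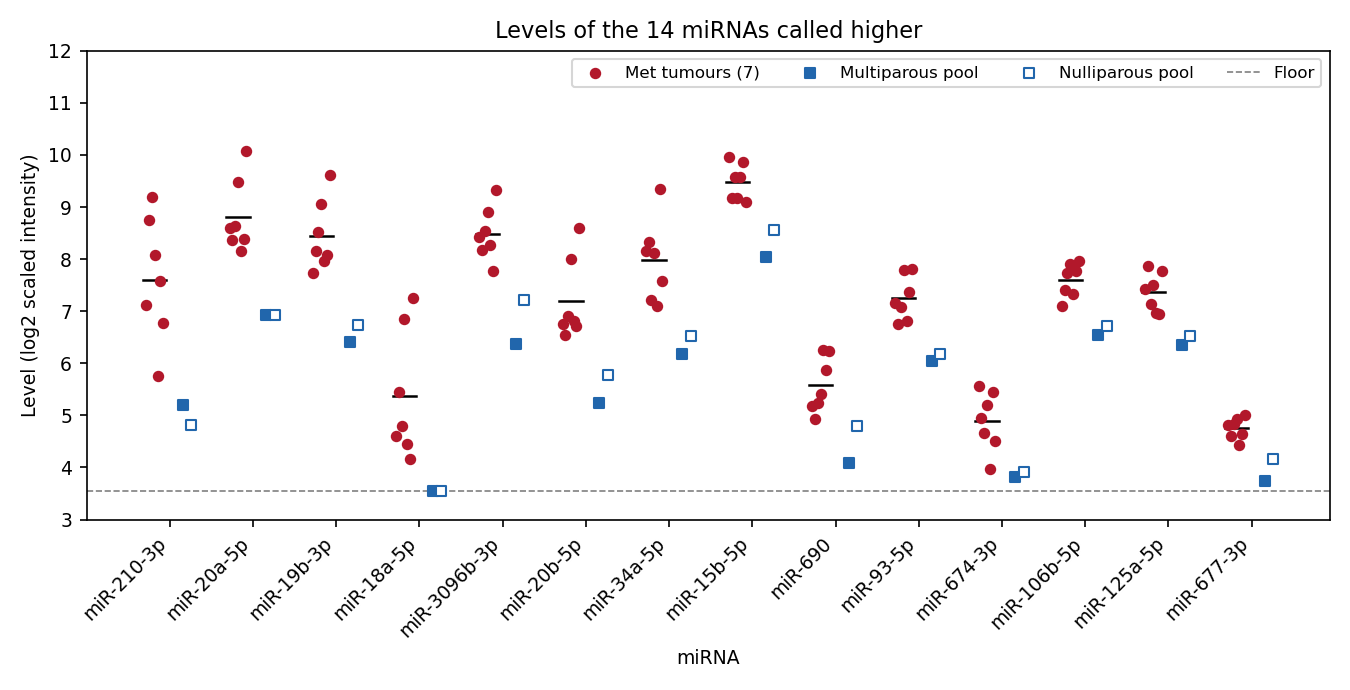
Levels (log2 scaled intensity) of the 14 miRNAs called higher, with the 7 Met tumours as circles left of the 2 pools as squares, black lines for the tumour mean and a dashed line for the floor at 3.54. All 7 tumours lie above both pools for each miRNA, and both pools of miR-18a-5p lie on the floor.

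MiR-34a-5p, which p53 induces and which represses Met and cell cycle genes, was the 1 of 5 tested p53-induced miRNAs that was called. It ranged from 7.09 to 9.35 in Met tumours, with a median of 8.12, against 6.18 and 6.52 in the pools, and rose by 1.62 (SE 0.48, limma adjusted p = 0.0231). Tumour 6 was highest and tumours 3 and 5 were lowest. Within its slides the difference was 1.97 and 1.60. Its call was lost with the scaling over all mouse probes (1.27, adjusted p = 0.2) and without either pool (1.45 and 1.79, adjusted p = 0.308 and 0.121). MiR-34b-5p and miR-34c-5p, from another gene, stood at 0.18 and 0.20 and were well above background on 2 Met arrays each. Of 8 tested miRNAs described, mostly in human cells, as binding the Met messenger RNA, miR-34a-5p was called higher. The 2 called lower, miR-206-3p and miR-1a-3p, belong to the muscle list too. The median change of these 8 was 0.19. Among them miR-27b-3p lay above both pools in all 7 tumours, at 7.15 to 10.08 against 6.84 and 6.84, and was not called at 1.58 (limma adjusted p = 0.132).

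MiR-15b-5p, made with miR-16 from an intron of the condensin gene Smc4, ranged from 9.10 to 9.96 in tumours, against 8.03 and 8.56 in the pools, and rose by 1.19 (SE 0.25, limma adjusted p = 0.00138). It was the only member called of 7 in the miR-15 and miR-16 families. Higher calls also included miR-3096b-3p, at 7.77 to 9.33 in tumours against 6.37 and 7.21 in the pools, a rise of 1.70 (SE 0.34, limma adjusted p = 0.00138). MiR-690 lay at 4.93 to 6.26 in tumours against 4.09 and 4.79 in the pools, a rise of 1.15 (SE 0.33, limma adjusted p = 0.0191). The remaining calls, outside the rule for naming, were miR-674-3p at 1.04, miR-125a-5p at 0.93 and miR-677-3p at 0.80. For miR-674-3p and miR-677-3p the probes disagreed, with 1 probe near 0 and another at 1.62 and 1.59. The same held for lower calls, where 1 probe was near 0 and another at -2.06 for miR-129-2-3p, -1.99 for miR-338-3p, -1.83 for miR-139-5p, -0.78 for miR-126-5p and -0.67 for miR-676-3p.

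None of the 14 higher calls was kept without each pool in turn. Without the multiparous pool limma called 0 miRNAs higher and 11 lower, and the 14 then had adjusted p between 0.0881 and 0.431. Without the nulliparous pool 5 were called higher and 15 lower. Tumour 1 shared slide and scan date with the multiparous pool, and tumour 4 with the nulliparous pool. Tumours 2 and 3 shared only the scan date of the nulliparous pool. Tumours 5, 6 and 7 shared neither slide nor scan date with a pool. With slide as a block 37 were called and the calls of miR-101c, miR-106b-5p, miR-125a-5p, miR-128-3p, miR-139-5p, miR-143-3p, miR-26b-5p and miR-3107-5p were lost (adjusted p between 0.0573 and 0.091). With scan date as a block 38 were called and those of miR-106b-5p, miR-125a-5p, miR-139-5p, miR-143-3p, miR-18a-5p and miR-3107-5p were lost (adjusted p between 0.0538 and 0.104).

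Some smaller families had 1 or 2 members lower. MiR-29c-3p represses collagens and other matrix genes. It ranged from 5.65 to 8.42 in tumours, with a median of 7.58, against 9.25 and 9.16 in the pools, and fell by 1.81 (SE 0.42, limma adjusted p = 0.00463). Tumour 7 was lowest. MiR-29a-3p and miR-29b-3p, which have the same seed, were not called, and the 3 miRNAs with that seed ran from -1.81 to -0.51. MiR-29c-5p was well above background on 0 of 7 Met arrays and was at least 1.42-fold lower, with means of 3.54 in tumours and 4.16 in the pools (limma adjusted p = 2.57e-07). All tumours lay on the floor and show no spread, which makes that p too small. The probes of miR-29c-5p read -1.22 and -0.03, and with normexp its difference was -0.09 (limma adjusted p = 0.812). Without the multiparous pool miR-29c-3p stood at -1.77 (adjusted p = 0.114) and without the nulliparous pool at -1.85 (adjusted p = 0.0533).

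MiR-107-3p, from an intron of the pantothenate kinase gene Pank1, ranged from 5.72 to 7.12 in Met tumours, with a median of 6.86, against 8.86 and 8.07 in the pools. It fell by 1.74 (SE 0.33, limma adjusted p = 0.000687), and tumour 7 stood below the others. Its near-identical relative miR-103-3p, from 2 other pantothenate kinase genes, ranged from 6.96 to 8.20, against 8.52 and 8.64 in the pools. It stood at -0.75 and was not called (limma adjusted p = 0.128), although all 7 tumours lay below both pools. The pools differed by more in miR-107-3p than in miR-103-3p, and without the multiparous pool miR-107-3p stood at -1.34 (adjusted p = 0.0948). MiR-3107-5p, whose mature sequence is that of the erythroid and muscle miRNA miR-486-5p, ranged from 3.54 to 6.43 in tumours against 7.20 and 6.96 in the pools, a fall of 2.30 (SE 0.77, limma adjusted p = 0.046). It lost its call in 18 of the 24 alternatives run. The neuronal miR-128-3p fell by 1.10 (SE 0.31, limma adjusted p = 0.0167). Its call was lost with normexp, at -0.23 (limma adjusted p = 0.527), and without either pool in turn. The other tested member of the neural list, miR-9-3p, went the other way, at 0.78, and was not called.

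The lower calls not yet given, which the naming rule does not cover, were miR-139-5p at -1.10, miR-22-5p at -0.98, miR-101c at -0.80, and miR-26b-5p and miR-338-3p (limma adjusted p = 0.0411 and 5.38e-09). MiR-338-3p lay at 3.80 in tumour 2 and at or below 3.55 in the others, so that the floor makes its p too small. With normexp all of these calls were lost, in that order at -0.28, -0.11, -0.05, -0.78 and -0.21 (limma adjusted p = 0.464, 0.755, 0.883, 0.0763 and 0.565). MiR-26b-5p was called in only 11 of the 25 alternatives run. In miR-139-5p and miR-26b-5p 6 of 7 tumours lay below both pools. MiR-129-2-3p was well above background on 0 of 7 Met arrays and was at least 1.89-fold lower (means of 3.54 in tumours and 4.57 in the pools, limma adjusted p = 0.000874). It had entered the test through the pools only, so that its direction was nearly fixed by the filter. All tumours lay on the floor with no spread, which makes that p too small. With normexp its difference was -0.24 (limma adjusted p = 0.527), and without the multiparous pool -0.57. MiR-676-3p, also well above background on 0 of 7 Met arrays, was at least 1.16-fold lower (3.54 and 3.88, limma adjusted p = 0.0438). With normexp miR-676-3p turned to 0.03.

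Limma called no tested member of the let-7, miR-30, leukocyte, erythroid and tumour-associated lists, and let-7e-5p, at 0.71, was the only one of them at an unadjusted p under 0.05 (adjusted p = 0.121). The erythroid list also holds miR-486-5p, which was not on the array under that name. MiR-3107-5p, which has its mature sequence, was called lower, at -2.30, as given above. The 9 let-7 members had a median change of 0.06 and the 7 miR-30 members of -0.06. The oncomiR miR-21-5p ranged from 9.14 to 13.83 in Met tumours, with a median of 11.58, against 9.44 in the multiparous and 10.93 in the nulliparous pool, a difference of 1.22 (SE 0.72, limma adjusted p = 0.339). Tumour 1 lay below both pools and the spindloid tumour 2 was highest. MiR-31-5p ranged from 3.54 to 9.29, with tumour 2 again highest, against a pool mean of 3.97, a difference of 1.55 (SE 1.43, limma adjusted p = 0.541). Among 7 leukocyte miRNAs the lymphocyte miR-150-5p lay at the floor in 6 tumours and at 7.95 in tumour 5, against 4.54 and 5.83 in the pools. Its difference was -1.01 (limma adjusted p = 0.439), and without tumour 5 it was called, at -1.64 (adjusted p = 2.37e-07). All the remaining tumours then lay on the floor with no spread, which makes that p too small. That was the only 1 of 24 alternatives in which miR-150-5p was called. Of the red cell miRNAs, miR-451 ranged from 7.88 to 11.61 in tumours and lay at 11.10 and 10.26 in the pools, a difference of -0.99 (limma adjusted p = 0.541).

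**Figure D5:**
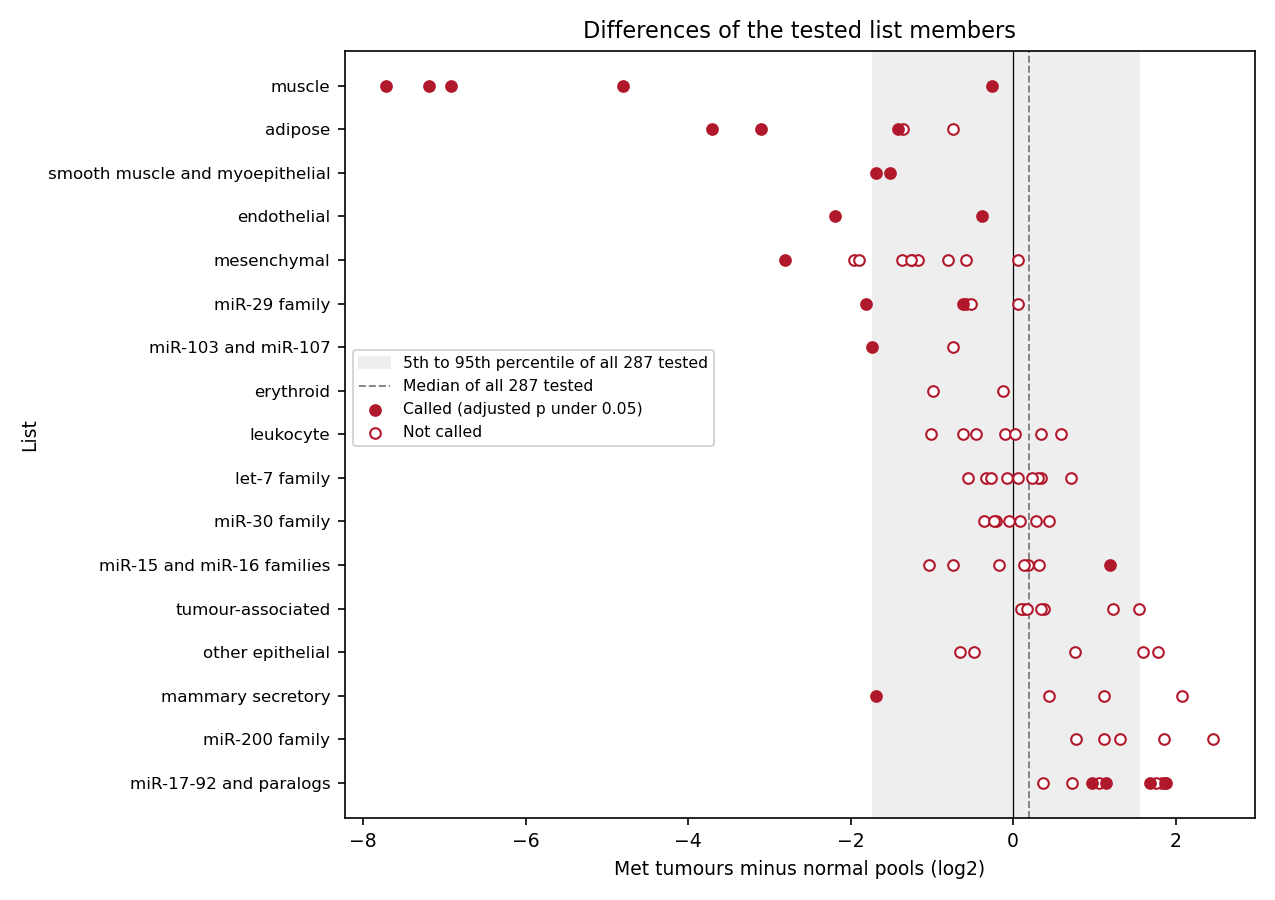
Each point is the Met minus normal difference (log2) of a tested list member, filled where it was called. The dashed line is the median of all 287 tested miRNAs at 0.20 and the grey band their 5th to 95th percentile. Muscle members reach -7.71 and all members of the miR-17 list lie above 0.

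The other tumours of the series were set against the same 2 pools, so the 3 comparisons share their normal samples. Of the 42 miRNAs called in Met tumours, 36 were also called in MetTrp53 tumours, where 17.4% of all tested were called, and 29 in Trp53 tumours (14.3%). Whether Met tumours themselves differed from the other 16 tumours was tested without the pools. There 41 of 287 were called (14.3%), 22 higher (7.67%) and 19 lower (6.62%), and 2 of these were also among the 42. The level of miR-34a-5p had a median of 8.12 in Met tumours against 6.56 in the other tumours, and was higher by 1.28 (SE 0.27, limma adjusted p = 0.00317). Its change against the pools was 1.62 in Met, 0.44 in MetTrp53 and 0.25 in Trp53 tumours (limma adjusted p = 0.0231, 0.545 and 0.837). MiR-125a-5p, of a cluster with miR-99b and let-7e, was lower in Met tumours than in the others, at a median of 7.42 against 8.22, by -0.85 (SE 0.16, limma adjusted p = 0.00317). Against the pools it stood higher in every genotype, by 0.93 in Met, 1.49 in MetTrp53 and 2.07 in Trp53 tumours. The muscle, adipose and miR-17 calls gave no call here. The difference from the other tumours was 0.16 for miR-133b-3p, -0.34 for miR-378-3p and 0.42 for miR-20a-5p (limma adjusted p = 0.933, 0.433 and 0.258). The count of 41 was 18 without Met tumour 1, 16 without tumour 3 and 17 without tumour 6, the 3 solid nodular tumours. The titles of Trp53 tumours 2 and 3 share an ID, as do those of Trp53 tumours 4 and 8, so that each pair may come from 1 animal. With each pair averaged as 1 sample, 44 were called, 20 higher and 24 lower, of which 38 were among the 41.

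Several miRNAs that did not differ from the pools past the threshold did differ between Met and the other tumours. They are given here by their list or, for miR-221-3p, because their difference was large, chosen after the values were seen. MiR-200c-3p had a median of 9.44 in Met tumours against 4.03 in the other tumours, a difference of 3.87 (SE 1.04, limma adjusted p = 0.018), and all 5 members of its family were called higher. MiR-148a-3p and miR-146b-5p were higher by 2.93 and 2.80 (limma adjusted p = 0.00317 for both), and miR-30a-5p by 2.25 (limma adjusted p = 0.00317). MiR-31-5p was lower by -3.19 (limma adjusted p = 0.0122), miR-221-3p by -2.57 (limma adjusted p = 0.00317) and miR-21-5p by -1.37 (limma adjusted p = 0.0256). For miR-31-5p the Met median was 5.35 and that of the other tumours 9.33, with a pool mean of 3.97. The groups of tumours also differ in parity and pathology, which cannot be told apart from genotype here.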

How the data were processed

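Total RNA from frozen tissue, carrying the dye Cy3, was measured on Agilent one-colour miRNA arrays, per the labels' protocols. The deposited intensity values are processed signals of Agilent Feature Extraction 10.7.3.1, background-subtracted but not normalised between arrays, per the file headers, and the deposited flags mark outlier spots and spots well above background. A second deposited file holds the authors' log2 values; the submitters' processing notes name RMA. Its columns followed the scanner's log2 intensity, with medians from 1.72 to 1.91 and an unknown centring, so it served as an alternative. No other sample's columns were used.

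Intensities were divided by each array's 75th percentile over the 221 probes well above background on all 25 arrays (278.8 to 908.9 intensity units, 278.8 to 837.1 in the 9 compared). A floor at 0.0212 of it was set, log2 taken and the mean log2 percentile added back. Outlier spots were left out, and spots and then probes were averaged (1122 miRNAs, 40 spots each). A probe was well above background where at least 50% of its spots were. Tested were miRNAs well above background in at least 7 tumours of the series, or else in both pools. The number of arrays limits the precision.

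All 25 arrays entered 1 model of 4 groups in limma 3.58.1 (R 4.3.3, lmFit and eBayes), with Benjamini-Hochberg adjustment over the 287 miRNAs, and the steps were tested on simulated data. Python 3.11.15 with pandas 2.3.3 and numpy 2.4.6 did the rest. Tumour 1 and the multiparous pool shared slide 1, tumour 4 and the nulliparous pool slide 3, so slide and scan date were also fitted as blocks. Normexp, offset 50, was run on the median spot signal. Named are the 10 largest changes in each direction among calls with both groups measured, bounds for calls with a group entirely not well above background, and 2 to 4 members of each list. Bounds compare the brighter mean with the lowest signal well above background, and hold only for the scaling, background correction and floor of the main fit. The comparison, the lists and the tests were chosen with earlier results of these data known. Liver and neural lists had 0 and 2 members tested. Replicate numbers follow accession order and pair no samples.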

Additional observations from a re-analysis of the deposited data

Results flagged for a closer look

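In groups of 7 tumours a sample was marked where its gap to the nearest other, over the range of the group, passed Dixon's critical value. This was done for 68 miRNAs and marked 16. Chance marks about 1 group in 20 where levels are not cut at a floor, so that rate cannot be set against the 16. With all other tumours on the floor, as for miR-150-5p and miR-378-5p, any level above it is marked. The miRNAs are also not independent of each other. The spindloid Met tumour 2 lay low in miR-141-3p, miR-200b-3p, miR-200c-3p and miR-429-3p, each at 3.54, and in miR-96-5p at 4.52. It lay high in miR-31-3p at 5.98, miR-22-5p at 3.97 and miR-338-3p at 3.80. Met tumour 4 lay high in miR-133a-3p at 7.69, miR-1a-3p at 7.70 and miR-133a-5p at 3.60. Met tumour 5 lay high in miR-150-5p at 7.95, miR-146a-5p at 6.28, miR-126-5p at 3.91 and miR-378-5p at 3.81. Met tumour 7 lay low in miR-107-3p at 5.72. Levels under about 4 lie near the floor.

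Of the 68 miRNAs named or called, 14 passed the test of Met against the other tumours in the same limma fit. Their difference from the pools was thus not that of the other tumours. Over all 287 miRNAs tested 41 passed it (14.3%), and the lists behind the 68 were chosen with earlier results of these data known. The difference was more positive in Met tumours for miR-200c-3p by 3.87, miR-200b-3p by 3.05, miR-141-3p by 3.02, miR-429-3p by 2.83, miR-30a-5p by 2.25, miR-30a-3p by 1.78, miR-34a-5p by 1.28 and miR-30e-3p by 0.53. It was more negative for miR-31-5p at -3.19, miR-31-3p at -1.79, miR-223-3p at -1.50, miR-21-5p at -1.37, miR-125a-5p at -0.85 and let-7e-5p at -0.62.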

How the results depend on the processing

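Of 42 miRNAs called against the pools, those that kept the call without each pool in turn were all lower. Under every alternative that tested them 6 were called: miR-133a-3p, miR-133a-5p, miR-206-3p, miR-378-3p, miR-378-5p and miR-378b. MiR-133a-3p, miR-133a-5p, miR-206-3p and miR-378-5p had entered the test through the pools only. Their direction was nearly fixed by the filter, so that it is no sign of stability. Of the 6 only miR-378-3p and miR-378b were also tested among the miRNAs well above background on all 9 arrays. Over 1031 values of the 42 miRNAs under alternatives, 806 kept direction and call, 223 lost the call and 2 turned sign. The count was 26 with normexp (12 higher, 14 lower), 24 with no detection filter (of 1122), 24 over miRNAs well above background on all 9 arrays (13 higher, 11 lower, of 154), 19 with only the Met and normal arrays in the model, and 22 for multiparous samples alone. Leaving out a sample gave 11 to 45. The other counts lay within 1.5 times of 42, with the splits 3 and 31 (all-probe percentile), 10 and 28 (quantile), 11 and 29 (the authors' deposited table), and 41 in all with the scanner software's detection call as filter (330 tested). With the Trp53 tumours of a shared ID averaged it was 42 (13 higher, 29 lower), and miR-18a-5p lost its call (adjusted p = 0.0603). Both alternatives were chosen after seeing the data. Against the other tumours the count of 41 was 27 with normexp, 24 with the all-probe percentile, 12 with no filter, 25 over miRNAs measured on all arrays (131 tested), and 16 to 60 without 1 Met tumour. The median change of all miRNAs was 0.35 with normexp and 0.04 with the all-probe percentile.

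Signs turned with normexp for miR-126-5p (0.11), miR-676-3p (0.03), miR-486-3p (0.08) and miR-30e-3p (0.09). They turned with the all-probe percentile for let-7b-5p (-0.01) and miR-30a-3p (-0.12, and -0.06 with quantile, -0.1 with the authors' table and -0.04 for multiparous samples), for miR-155-5p (-0.15 with the authors' table, -0.07 with scan date as a block) and for miR-223-3p (0.26 for multiparous samples, 0.28 without the nulliparous pool and -1.19 without the multiparous pool). Of these, only miR-126-5p and miR-676-3p were called. The causes were not tested. No paired analysis was possible because the labels give no replicate numbers. Slide, which joined tumour 1 and tumour 4 each to a pool, was fitted as a block instead. Differences of miRNAs at the floor have no measured size, and only 2 pools were measured.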

Other observations

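The 2 normal pools differed by more than 1 on the log2 scale in 18 of the 287 miRNAs, with no test possible between single samples. The multiparous pool was lower in miR-142-3p, a miRNA of blood leukocytes, at 5.06 against 7.38 in the nulliparous pool, and the Met tumours spanned both, from 3.82 to 8.84. MiR-223-3p of myeloid cells lay at 7.75 in the multiparous and 9.22 in the nulliparous pool, and miR-199a-5p of fibroblasts at 5.92 and 7.29. The multiparous pool was higher in miR-1224-5p, at 9.20 against 7.81. In miR-1224-5p 3 Met tumours lay above both pools and 0 below. In miR-223-3p 2 lay above both and 3 below, and in miR-199a-5p 1 above and 5 below.

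Of 57 viral miRNAs on the array, 6 were well above background on a Met array, and each of these was so on a pool as well.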
